A study of Homo sapiens with 24 samples.

Results

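The comparison described here asked how RNA levels in human embryonic stem cells (hESCs) grown on feeder cells differed after the lactate transporter MCT1 was inhibited. It was made by taking every array titled as feeder-supported and treated with either the MCT1 inhibitor or DMSO, which gave 6 of the 24 arrays of the series. The arrays form 3 pairs, with H1, H9 and HSF1 cells giving 1 pair apiece, and the description covers all 17218 genes that were bright enough to be tested. The inhibitor was AZD3965 at 250 nM for 5 days, and its control was DMSO for 5 days in the same line and culture system. A further 6 arrays hold the same treatments in the same lines without feeders, and serve for comparison. The remaining 12 arrays, of feeder-free H9 and HSF1 cells in conditioned or unconditioned medium, are not analysed here.

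RNA was total RNA, labelled with biotin and hybridised to Affymetrix U133 Plus 2.0 arrays, and the authors deposited log2 values. Feeder-supported cells grew on mouse embryonic fibroblasts (MEFs), and no label says whether the feeders were removed before RNA was taken. Each line contributed 1 array per treatment, so the p-values below rest on differences between lines and not on the spread of repeat cultures of a line. The spread between lines was pooled over feeder-supported and feeder-free pairs. It was also drawn toward that of genes of like brightness (4 residual and 9.07 prior degrees of freedom). In such bulk samples, fewer cells of a type and less RNA per cell cannot be told apart. On the feeder-supported arrays all 8 measured pluripotency markers of a list of 10 stood above a log2 value of 5, the level below which genes were treated as dim. So did 4 of 4 endoderm, 3 of 3 mesoderm, 2 of 2 neuroectoderm, 3 of 3 trophoblast and 10 of 12 fibroblast markers. Standing above 5 therefore does not tell cell types apart. Over all probe sets of the array, DMSO and inhibitor arrays of a line correlated at 0.994 in H1, 0.991 in H9 and 0.986 in HSF1. The HSF1 feeder-supported arrays stood apart from the rest, with the narrowest distribution of values (interquartile range 2.45 on both) and correlations down to 0.86 with other arrays of the series. Log2 values of the 3′ minus the 5′ control probes of ACTB, a measure of RNA integrity, went from 0.80 to 1.19 with the inhibitor in H1, from 0.56 to 0.44 in H9 and from -0.15 to -0.31 in HSF1.

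MCT1 is a plasma membrane carrier that moves lactate and pyruvate together with protons. Primed pluripotent stem cells rely on glycolysis and export much of the lactate they make, so inhibition of MCT1 changes the handling of pyruvate, lactate and acid. Among the transcriptional systems that read these conditions, hypoxia-inducible factors (HIFs) act on genes such as PDK1 and BNIP3, and MondoA and ChREBP respond to sugar phosphates and act on genes such as TXNIP and ARRDC4.

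Promoters are shown for some called members of 4 gene groups described below. Those of the called members KLF10, DKK4 and SFRP1 are left out. Each is the 250 bases before the RefSeq start of the gene (build GRCh38.p14), written 5′ to 3′ on the gene's strand, with the motif searched in capitals on either strand. The first pair, BST2 (chr19:17405631-17405880, minus strand) and B2M (chr15:44711267-44711516, plus strand), were searched for GAAA, any 2 bases and GAAA again, the core of the interferon-stimulated response element. Each holds 2 overlapping matches.
BST2: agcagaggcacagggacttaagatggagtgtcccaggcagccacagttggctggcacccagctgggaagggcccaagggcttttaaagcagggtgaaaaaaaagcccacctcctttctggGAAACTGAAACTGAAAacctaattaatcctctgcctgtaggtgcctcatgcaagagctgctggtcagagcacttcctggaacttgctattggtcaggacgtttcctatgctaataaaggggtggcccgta
B2M: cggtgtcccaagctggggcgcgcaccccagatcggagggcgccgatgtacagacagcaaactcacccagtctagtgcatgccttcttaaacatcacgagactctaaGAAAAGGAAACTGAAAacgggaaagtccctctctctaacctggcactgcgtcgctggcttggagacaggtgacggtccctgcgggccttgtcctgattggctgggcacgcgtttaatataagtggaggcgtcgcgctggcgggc
BNIP3 (chr10:131981924-131982173, minus strand) and ERO1A (chr14:52695559-52695808, minus strand) were searched for ACGTG and GCGTG, the core that HIFs bind. BNIP3 holds 6 matches, of which 2 overlap as the palindrome CACGTG, and ERO1A holds 2. PDK1 (chr2:172555123-172555372, plus strand) holds 0 in this window.
BNIP3: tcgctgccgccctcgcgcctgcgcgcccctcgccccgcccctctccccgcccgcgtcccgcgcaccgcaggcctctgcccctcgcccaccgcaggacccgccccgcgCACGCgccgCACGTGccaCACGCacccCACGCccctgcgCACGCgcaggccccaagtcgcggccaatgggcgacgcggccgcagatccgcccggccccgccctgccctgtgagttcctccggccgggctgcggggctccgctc
ERO1A: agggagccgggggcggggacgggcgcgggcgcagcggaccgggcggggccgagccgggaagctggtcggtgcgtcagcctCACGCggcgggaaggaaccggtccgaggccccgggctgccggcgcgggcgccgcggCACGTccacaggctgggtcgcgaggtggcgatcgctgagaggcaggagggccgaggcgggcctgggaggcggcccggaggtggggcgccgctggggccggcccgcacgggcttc
ARRDC4 (chr15:97960453-97960702, plus strand) was searched for CACGTG, an E-box that MondoA and ChREBP can bind and that also contains ACGTG, and holds 1 match. TXNIP (chr1:145996580-145996829, minus strand) holds 0. SP5 (chr2:170715087-170715336, plus strand) was searched for CTTTGA, the core bound by TCF and LEF factors of the WNT pathway, and holds 3.
ARRDC4: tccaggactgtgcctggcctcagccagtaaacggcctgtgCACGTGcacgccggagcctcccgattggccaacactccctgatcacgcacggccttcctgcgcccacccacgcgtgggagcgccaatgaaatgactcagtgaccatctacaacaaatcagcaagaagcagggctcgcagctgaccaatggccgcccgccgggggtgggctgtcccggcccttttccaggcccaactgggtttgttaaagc
SP5: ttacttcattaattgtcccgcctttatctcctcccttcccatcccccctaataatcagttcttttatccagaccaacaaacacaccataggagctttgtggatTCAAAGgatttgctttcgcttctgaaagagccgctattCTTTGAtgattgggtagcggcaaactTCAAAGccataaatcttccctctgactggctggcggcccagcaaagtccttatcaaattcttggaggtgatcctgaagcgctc
Over all 27305 promoters of this length in the RefSeq table, the repeated GAAA was present in 3.07%, ACGTG or GCGTG in 43.1%, CACGTG in 6.49% and CTTTGA in 11.4%. Among 50 promoters of genes that were higher with the inhibitor, the shares were 6%, 54%, 10% and 12%, beside 2.28%, 52.9%, 8.24% and 8.47% of 13538 promoters of genes tested. These motifs and promoters were picked after the expression values were seen. A match says only that the letters are present, and the absence of one in this window says nothing about a factor.

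With the inhibitor, 86 of the 17218 genes differed in feeder-supported cells (0.499%), 68 of them higher (0.395%) and 18 lower (0.105%), at an adjusted p under 0.05 (limma, paired by line within culture system, Benjamini-Hochberg over all genes). The viral restriction factor BST2 rose most, by 5.22-fold. With it rose the pyruvate dehydrogenase kinase PDK1, the mitophagy receptor BNIP3, the antigen presentation subunit B2M, the glucose-responsive arrestin TXNIP, the lectin LGALS1 and the WNT-related genes DKK4 and SP5. The cyclic AMP phosphodiesterase PDE4B, the WNT antagonist SFRP1, the homeobox gene HESX1 and the pluripotency regulator PRDM14 fell. Changes were small: 12 of the 86 genes passed 2-fold, and the median log2 difference over all genes tested was 0.0107.

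The number of genes depended on how the spread was estimated. Each difference was judged against a spread shared with the feeder-free pairs, whose lines resembled each other more: the median standard deviation (SD) of a gene's 3 differences was 0.208 on feeders and 0.139 without them. With the 6 feeder-supported arrays alone, 339 genes passed in limma, all 86 among them. In that fit LGALS1, with differences of 0.98, 2.44 and 1.09 in H1, H9 and HSF1, had an adjusted p of 9.35e-12. A value so small from 3 such differences rests mostly on the spread borrowed from other genes, so passing there is not separate support. With the line as the only block, 1 gene passed (BST2), and 286 had an unadjusted p under 0.05. That block puts the lines' unequal response to feeders into the spread. With no block no gene passed and 132 had an unadjusted p under 0.05 in limma. Without the feeder-supported pair of H1, H9 or HSF1 the counts were 12, 7 and 6. The genes called in all 3 of these fits were BST2, CXCL5 and PDK1. The feeder-free pair of that line stayed in the fit and its spread, here and wherever a line is left out below. Averaging all probe sets of a gene in place of the brightest gave 9 genes, 8 of them among the 86. For genes with 1 probe set that analysis keeps the value and changes only the spread and the adjustment. After quantile normalization 58 passed, 53 of them among the 86, with 67.2% higher in place of 79.1%. With array weights 256 passed, 75 of them among the 86, and 59.4% were higher.

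The responses of the 3 lines correlated weakly across genes. Differences larger than 1 on the log2 scale numbered 13 upward and 6 downward in H1, 111 and 6 in H9, and 67 and 69 in HSF1. Across genes, which are not independent replicates, the differences of H1 and H9 correlated at 0.188, those of H1 and HSF1 at 0.273 and those of H9 and HSF1 at 0.1. Without feeders the same correlations were 0.669, 0.672 and 0.635. All 86 called genes moved the same way in 3 of 3 lines, as did 17.5% (higher) and 12.4% (lower) of all genes tested. In 12 of the 68 higher and 8 of the 18 lower genes the 3 DMSO and 3 inhibitor arrays did not overlap, beside 2.02% of all genes. The genes were called on these same values, so neither the shared direction nor the lack of overlap is separate support.

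BST2, also called tetherin, is an interferon-inducible membrane protein that holds enveloped virus particles at the cell surface. Its log2 value with DMSO was 6.88 in H1, 6.89 in H9 and 7.08 in HSF1, and with the inhibitor it was 8.89, 9.90 and 9.22. The groups did not overlap, and the lines were nearly equal before treatment. The fitted difference of BST2 was 2.39 (SE 0.177, adjusted p = 8.22e-05). It passed the threshold in 13 of 14 alternative analyses, with differences from 2.07 to 2.57. The exception was the fit with no block (adjusted p = 0.102).

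The other genes of the interferon response list did not pass the threshold. Of 38 tested genes of that list, BST2 alone passed, beside 0.499% of all genes, and the list's median difference was 0.09. An unadjusted p under 0.05 in limma was reached by 7 of them upward, BST2 included, and 0 downward, beside 8.93% and 5.31% of all genes. IFIT1, an inhibitor of viral RNA translation, differed by 0.57 (adjusted p = 0.197), and the membrane restriction factors IFITM3 and IFITM2 by 0.26 (adjusted p = 0.106) and 0.25 (adjusted p = 0.187). Among 21 restriction factors BST2 was again the 1 gene past the threshold, and the median was -0.01. The cytidine deaminase APOBEC3B, a member of that list, differed by 0.92 (adjusted p = 0.0835). The median of the restriction factor list turned positive in 3 of the settings tried and reached 0.06 without HSF1.

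B2M, the light chain that every class I antigen-presenting molecule needs at the surface, rose. Its log2 value went from 11.66 to 12.22 in H1, from 11.10 to 12.10 in H9 and from 10.74 to 11.55 in HSF1. Each line moved up, and the groups overlapped because H1 with DMSO lay above HSF1 with the inhibitor. The difference of B2M was 0.79 (SE 0.0938, adjusted p = 0.00303), and without H9 or HSF1 its adjusted p was 0.0608 or 0.0515. Averaged over its 3 probe sets, 2 of which moved up, B2M differed by 0.48 (adjusted p = 0.154). B2M was the 1 called gene of 18 tested in the class I list, beside 0.499% of all genes called. The list's median was 0.09. In limma 7 of the 18, B2M included, had an unadjusted p under 0.05 upward and 1 downward, beside 8.93% and 5.31% of all genes. PSMB9, a catalytic subunit of the immunoproteasome, went from 6.29 to 7.12 in H1, from 6.39 to 7.001 in H9 and from 6.45 to 6.68 in HSF1. These groups did not overlap, yet the difference of 0.56 missed the threshold (adjusted p = 0.0774). The heavy chains HLA-C and HLA-B differed by 0.37 (adjusted p = 0.0834) and 0.39 (adjusted p = 0.1). The class I median was 0.18 in H1 and 0.39 in H9 but -0.08 in HSF1.

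**Figure D1:**
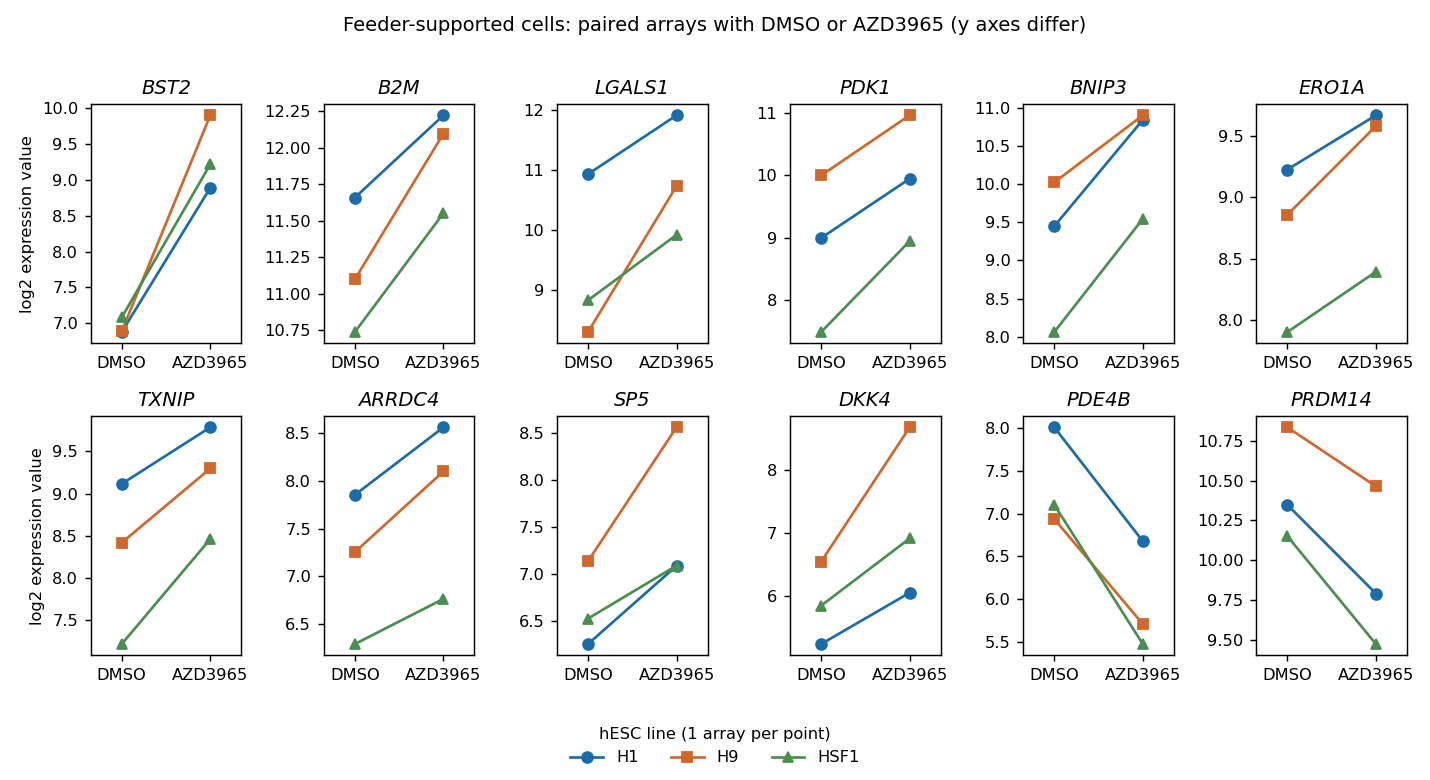
Log2 expression values of 12 genes (1 panel each, y axes differ) on the feeder-supported arrays with DMSO (left) and AZD3965 (right), where each line joins the 2 arrays of 1 cell line. BST2 goes from 6.88 to 7.08 with DMSO to 8.89 to 9.90 with the inhibitor, PDE4B and PRDM14 go down in all 3 lines, and the other genes start from levels that differ between lines and go up in each.

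Among 27 tested genes of the hypoxia response, PDK1, BNIP3 and ERO1A rose and none fell. Of all genes, 0.395% were called higher and 0.105% lower. The list's median was 0.17, beside 0.0107 over all genes, and 22 of 27 differences were above 0, beside 52.9% over all genes. The median was positive in each line (0.25 in H1, 0.34 in H9 and 0.17 in HSF1) and ran from 0.13 to 0.31 over the 9 other settings that can move it.

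PDK1 phosphorylates and shuts off pyruvate dehydrogenase, the entry of pyruvate into mitochondrial oxidation. PDK1 went from 8.997 to 9.95 in H1, from 9.9985 to 10.96 in H9 and from 7.49 to 8.95 in HSF1. The rise was of like size in H1 and H9 and larger in HSF1, where the starting level was lowest. The fitted difference was 1.12 (SE 0.114, adjusted p = 0.00112), and it passed whichever line was left out. With its 3 probe sets averaged it was 0.56 (adjusted p = 0.0623). BNIP3, an outer mitochondrial membrane protein that marks mitochondria for autophagy, went from 9.45 to 10.84 in H1, from 10.02 to 10.90 in H9 and from 8.06 to 9.54 in HSF1. Its difference was 1.25 (SE 0.131, adjusted p = 0.00123), and without H1 the adjusted p was 0.05001. ERO1A, the oxidase that drives disulphide formation in the endoplasmic reticulum, went from 9.22 to 9.67 in H1, from 8.86 to 9.58 in H9 and from 7.90 to 8.39 in HSF1. It rose by 0.55 (SE 0.109, adjusted p = 0.0442), and it lost the call whichever line was left out (adjusted p = 0.118 to 0.131) and with its probe sets averaged (0.33, adjusted p = 0.268).

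Glycolysis itself showed no called gene among 21 tested, of which 16 differed by more than 0, beside 52.9% of all genes. An unadjusted p under 0.05 was reached by 5 upward and 2 downward, beside 8.93% and 5.31% of all genes. The median was 0.12, but it was -0.0023 without H9. The neuronal enolase ENO2 differed by 0.49 (adjusted p = 0.0609), the glucose transporters SLC2A3 and SLC2A1 by 0.36 (adjusted p = 0.0901) and 0.47 (adjusted p = 0.107), and PFKFB2, which sets the level of the activator of phosphofructokinase, by 0.63 (adjusted p = 0.104). HK2, the hexokinase bound to mitochondria, differed the other way, by -0.39 (adjusted p = 0.111), and 1 of its 3 probe sets went down.

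Of 25 tested genes of lactate and pyruvate handling, PDK1 alone passed, beside 0.499% of all genes, and the list's median was 0.02. LDHA, the enzyme that turns pyruvate into lactate, went from 13.17 to 13.41 in H1, from 12.9997 to 13.01 in H9 and from 12.32 to 12.47 in HSF1. These differences were smaller than those between H9 and HSF1, and the fitted value was 0.14 (SE 0.0569, adjusted p = 0.295). The aromatic amino acid transporter SLC16A10, a relative of MCT1, differed by -0.47 (adjusted p = 0.159), and the pyruvate dehydrogenase subunit PDHA1 by 0.20 (adjusted p = 0.35). The gene of MCT1 itself has no probe set naming it alone in the annotation used and is not analysed here. Oxidative phosphorylation had no called gene among 68, with 58 differences above 0, beside 52.9% of all genes, and a median of 0.11. An unadjusted p under 0.05 was reached by 19 of them upward and 2 downward, beside 8.93% and 5.31% of all genes. That median was positive in each line and from 0.08 to 0.13 over the other settings. The complex I subunit NDUFA1 differed by 0.34 (adjusted p = 0.054) and the ATP synthase subunit ATP5MC1 by 0.43 (adjusted p = 0.0772).

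The list for the glucose sensors MondoA and ChREBP held 9 tested genes, of which 6 are targets and 3 are the sensors themselves and their partner (MLXIP, MLXIPL and MLX). The targets TXNIP, ARRDC4 and KLF10 rose and none fell, beside 0.395% of all genes called higher and 0.105% called lower. All 9 differences were above 0, as were 52.9% of those of all genes. The list's median was 0.23, with 0.28 in H1, 0.25 in H9 and 0.25 in HSF1, and it ran from 0.22 to 0.28 over the other settings. TXNIP, which binds thioredoxin and restrains glucose uptake, went from 9.11 to 9.79 in H1, from 8.42 to 9.30 in H9 and from 7.21 to 8.46 in HSF1. It rose in every line, and the groups overlapped because the starting levels of the lines lay further apart than the change. The difference of TXNIP was 0.93 (SE 0.133, adjusted p = 0.0107). Its arrestin relative ARRDC4 went from 7.85 to 8.56, from 7.25 to 8.10 and from 6.29 to 6.76 in H1, H9 and HSF1, a rise of 0.68 (SE 0.13, adjusted p = 0.0417). KLF10, a zinc finger repressor, rose by 0.58 (SE 0.114, adjusted p = 0.0442). Each of these 3 lost the call whichever line was left out, with adjusted p from 0.05001 to 0.0817 for TXNIP, 0.0895 to 0.154 for ARRDC4 and 0.0933 to 0.172 for KLF10. TXNIP averaged over its probe sets differed by 0.44 (adjusted p = 0.132), and after quantile normalization TXNIP, ARRDC4 and KLF10 had adjusted p of 0.0529, 0.0557 and 0.0866. Thioredoxin itself, TXN, differed by 0.23 (adjusted p = 0.2).

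Among 17 WNT targets and pathway members SP5 and DKK4 rose and SFRP1 fell, beside 0.395% of all genes called higher and 0.105% called lower. The list's median was 0.12. SP5, a zinc finger factor switched on directly by WNT signalling in the primitive streak, went from 6.25 to 7.09 in H1, from 7.14 to 8.56 in H9 and from 6.53 to 7.09 in HSF1. The difference was 0.94 (SE 0.15, adjusted p = 0.0212). DKK4, a secreted WNT antagonist, went from 5.23 to 6.05 in H1, from 6.54 to 8.67 in H9 and from 5.84 to 6.91 in HSF1, a difference of 1.34 (SE 0.197, adjusted p = 0.0109). For both genes H9 showed the largest change and started highest. SFRP1, another secreted antagonist, went from 10.14 to 8.80 in H1, from 10.95 to 10.27 in H9 and from 10.52 to 8.89 in HSF1, and fell by 1.22 (SE 0.141, adjusted p = 0.00303). Without 1 line the highest adjusted p was 0.0984 for SP5, 0.077 for DKK4 and 0.0659 for SFRP1. Averaged over 4 probe sets SFRP1 differed by -0.64 (adjusted p = 0.135).

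SP5 was also the 1 called gene of 18 on the mesoderm and primitive streak list. Among all genes 0.395% were called higher and 0.105% lower. The list's median was 0.14, from -0.03 in H1 to 0.41 in H9 and 0.32 in HSF1. Several T-box and homeobox regulators of the streak had differences of 0.74 to 1.40 that did not pass the threshold. EOMES went from 7.61 to 9.02 in H1, from 10.45 to 11.40 in H9 and from 6.97 to 8.82 in HSF1, a difference of 1.40 (SE 0.29, adjusted p = 0.0558). TBXT (brachyury) differed by 0.78 (adjusted p = 0.0624) and MIXL1 by 0.74 (adjusted p = 0.106). The summed log2 level of the markers TBXT, MIXL1 and EOMES differed by 2.06 in H1, 3.46 in H9 and 3.23 in HSF1, and all 3 lay above 5 on every feeder-supported array. The endoderm list had no called gene among 15, of which 3 had an unadjusted p under 0.05, beside 14.2% of all genes. In it CER1, a secreted antagonist of Nodal and BMP, differed by 0.75 (adjusted p = 0.116) and the homeobox factor GSC by 0.54 (adjusted p = 0.119). The summed level of 4 endoderm markers differed by -0.48, -0.39 and 0.80 in H1, H9 and HSF1. BMP2, a ligand, differed by 0.88 (adjusted p = 0.0908) and its target ID4 by -0.91 (adjusted p = 0.0676), with -1.79 in HSF1 alone.

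Of 21 pluripotency genes PRDM14, L1TD1 and CD24 fell and none rose, beside 0.105% of all genes called lower and 0.395% called higher. The median was -0.12, with -0.18 in H1, -0.06 in H9 and -0.33 in HSF1, and it stayed between -0.2 and -0.11 in the other settings. PRDM14, a zinc finger regulator that guards the pluripotent state, went from 10.35 to 9.79 in H1, from 10.83 to 10.46 in H9 and from 10.15 to 9.48 in HSF1. It fell by 0.53 (SE 0.0987, adjusted p = 0.0416). L1TD1, an RNA-binding protein of pluripotent cells, fell by 0.31 (SE 0.0593, adjusted p = 0.0416) and the surface glycoprotein CD24 by 0.29 (SE 0.0474, adjusted p = 0.0218). The 3 DMSO arrays of CD24 lay from 13.95 to 13.98 and the 3 inhibitor arrays from 13.52 to 13.75, with no overlap. All of these calls were lost whichever line was left out, with adjusted p up to 0.147 for PRDM14 and L1TD1 and 0.101 for CD24. SOX2 differed by -0.28 (adjusted p = 0.0749) with arrays that did not overlap, from 12.02 to 12.27 with DMSO and from 11.62 to 11.9998 with the inhibitor. NANOG differed by 0.01 (adjusted p = 0.973), with 0.03 in H1, -0.11 in H9 and 0.12 in HSF1, and its sign turned with its probe sets averaged or without HSF1. The summed log2 level of the 8 pluripotency markers differed by -1.41, -0.51 and -2.30 in H1, H9 and HSF1. POU5F1 has no probe set naming it alone and is not analysed here. Among 21 genes of the primed state CD24 and HESX1 fell, and the median was -0.14. The list was mixed, with 8 of 21 differences above 0, beside 52.9% of all genes. An unadjusted p under 0.05 in limma was reached by 4 upward and 6 downward, beside 8.93% and 5.31% of all genes. SALL2, a zinc finger gene of that list, differed by -0.33 (adjusted p = 0.103).

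HESX1, a homeobox repressor of the anterior forebrain, went from 7.55 to 6.94 in H1, from 7.33 to 6.55 in H9 and from 7.21 to 6.27 in HSF1, with no overlap. It fell by 0.78 (SE 0.134, adjusted p = 0.0286) and was the 1 called gene of 21 on the neuroectoderm list, whose median was -0.01. That count stands beside 0.105% of all genes called lower and 0.395% called higher. OTX2, the homeobox gene that specifies anterior neural fate, differed by -0.51 (SE 0.137, adjusted p = 0.113), with -0.57 in H1, -0.23 in H9 and -0.71 in HSF1. SOX11 differed by -0.30 (adjusted p = 0.293). The sums of the neuroectoderm markers PAX6 and SOX1 differed by 0.54, -0.63 and 0.10 in H1, H9 and HSF1. With 1 line left out HESX1 had an adjusted p of 0.0964 to 0.142.

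PDE4B, which breaks down cyclic AMP, fell the most of all called genes. Its log2 value went from 8.01 to 6.68 in H1, from 6.94 to 5.71 in H9 and from 7.10 to 5.48 in HSF1. Arrays with DMSO and with the inhibitor did not overlap, and the change was of like size in the 3 lines. PDE4B fell by 1.39 on the log2 scale, 2.62-fold (SE 0.211, adjusted p = 0.0136), and the adjusted p was 0.0821 to 0.125 with 1 line left out. All 3 of its probe sets went down, and their mean differed by -0.60 (adjusted p = 0.154). PDE4B was the 1 called gene of 20 on the cyclic AMP list, whose median was -0.03. Of all genes, 0.105% were called lower and 0.395% higher. The related phosphodiesterase PDE4A differed by 0.42 (adjusted p = 0.285) and the protein kinase A subunit PRKAR2B by -0.65 (adjusted p = 0.0949).

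LGALS1, CTHRC1, NID2 and S100A11 rose among the matrix, lectin and S100 genes, most of which did not pass. LGALS1, the beta-galactoside-binding lectin galectin-1, went from 10.94 to 11.92 in H1, from 8.30 to 10.74 in H9 and from 8.83 to 9.92 in HSF1. H9 moved most, and the DMSO array of H1 lay above the inhibitor arrays of the other two lines. The difference of LGALS1 was 1.5045 (SE 0.219, adjusted p = 0.0107), with adjusted p of 0.05001 to 0.0633 with 1 line left out. CTHRC1, a secreted glycoprotein with collagen-like repeats, went from 7.93 to 8.93 in H1, from 6.73 to 8.42 in H9 and from 5.72 to 7.05 in HSF1, a rise of 1.34 (SE 0.159, adjusted p = 0.00303). NID2, a laminin-binding nidogen of basement membranes, went from 5.89 to 6.56 in H1, from 5.87 to 6.59 in H9 and from 5.73 to 6.53 in HSF1, with no overlap and a rise of 0.73 (SE 0.135, adjusted p = 0.0416). The calcium-binding protein S100A11 rose by 0.60 (SE 0.114, adjusted p = 0.0416). Without 1 line the highest adjusted p was 0.0608 for CTHRC1, 0.147 for NID2 and 0.17 for S100A11.

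The basement membrane list had 2 rises and no fall among 19 (median 0.16), and the galectin, annexin and S100 list 2 rises and no fall among 18 (median 0.15). The fibroblast and mesenchymal list had 1 rise, LGALS1, among 36 (median 0.14). Over all genes tested 0.395% were called higher and 0.105% lower. In the fibroblast and mesenchymal list 28 of 36 differences were above 0, beside 52.9% of all genes. There 9 genes had an unadjusted p under 0.05 in limma upward and 0 downward, beside 8.93% and 5.31% of all genes. The other nidogen, NID1, differed by 0.77 (adjusted p = 0.0698), the matrix proteins FBLN2 by 0.44 (adjusted p = 0.119) and HSPG2 (perlecan) by 0.35 (adjusted p = 0.187), and the protease inhibitor TIMP1 by 0.49 (adjusted p = 0.0836). The summed log2 level of the 12 fibroblast markers, of which 10 lay above 5 on every feeder-supported array, differed by 2.92 in H1, 0.52 in H9 and 2.51 in HSF1, and ran from 88.64 to 96.11 with DMSO and from 90.73 to 99.03 with the inhibitor. LUM and POSTN were dim on some of these arrays, with lowest values of 3.37 and 4.54 (both in HSF1 with DMSO). The part of these fibroblast transcripts, human or mouse, in the matrix and lectin results was not tested.

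**Figure D2:**
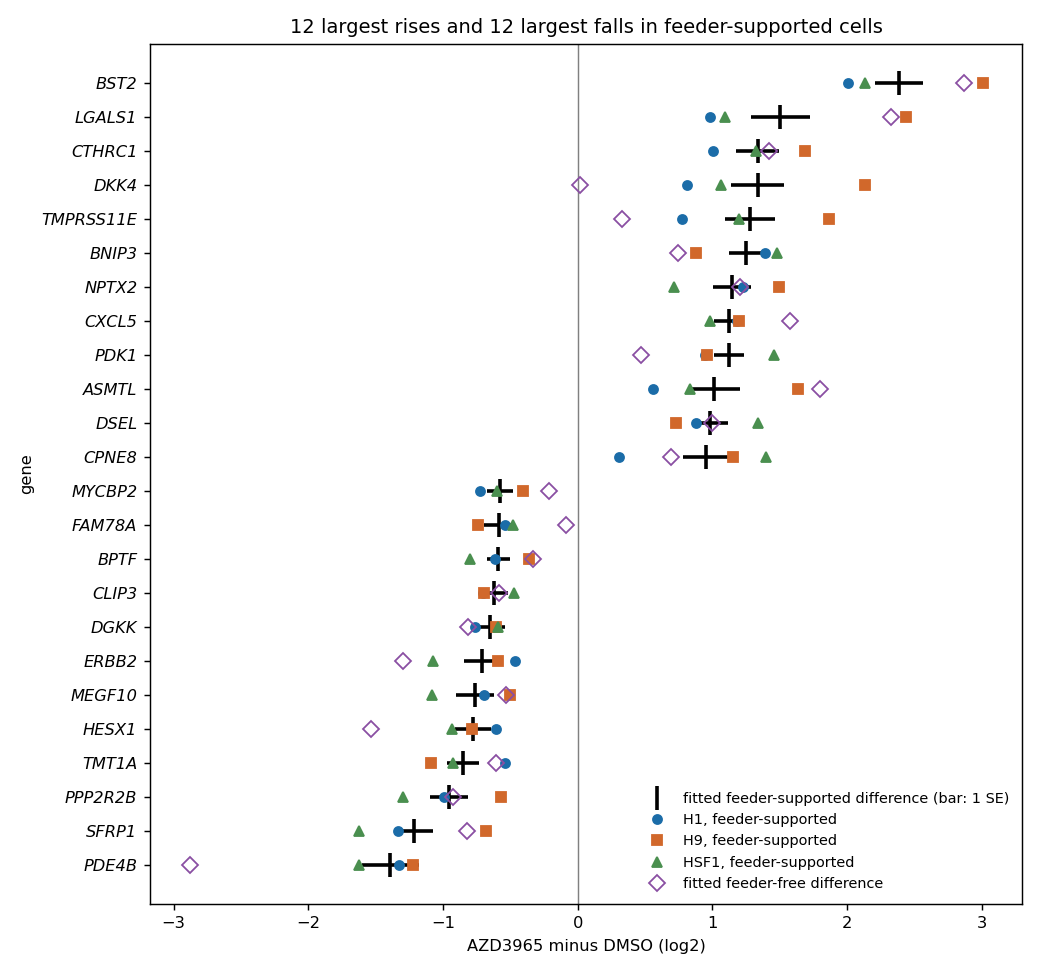
Log2 difference, AZD3965 minus DMSO (x axis), of the genes past the threshold that changed most (y axis), 12 upward and 12 downward. Filled symbols are the 3 feeder-supported lines, the black mark and bar are the fitted difference and 1 SE, and the open diamond is the fitted feeder-free difference. By that choice all filled symbols of a gene lie on 1 side of 0. The open diamonds of DKK4 (0.02, from values below 5) and FAM78A (-0.09) lie close to 0.

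The other large rises came from genes of varied function. CXCL5, a chemokine that draws neutrophils, went from 9.74 to 10.93 in H1, from 9.85 to 11.05 in H9 and from 9.12 to 10.11 in HSF1, with no overlap. Its rise of 1.12 (SE 0.11, adjusted p = 0.00112) was nearly equal in the lines and passed whichever line was left out. TMPRSS11E, a membrane-bound serine protease, went from 6.90 to 7.67, from 8.39 to 10.25 and from 7.39 to 8.58 in H1, H9 and HSF1, a rise of 1.28 (SE 0.184, adjusted p = 0.0107). NPTX2, a pentraxin found at synapses, went from 7.13 to 8.36, from 6.74 to 8.24 and from 6.48 to 7.19, with no overlap and a rise of 1.15 (SE 0.138, adjusted p = 0.00304). ASMTL, DSEL, an enzyme related to the epimerase of dermatan sulphate, and CPNE8, a calcium-dependent lipid-binding copine, rose by 1.01, 0.98 and 0.95 (adjusted p = 0.0416, 0.0103 and 0.0369). CPNE8 was the least even of these, with 0.31 in H1, 1.16 in H9 and 1.40 in HSF1. With probe sets averaged, CPNE8 differed by 0.29 (adjusted p = 0.381), DSEL by 0.37 (adjusted p = 0.172) and ASMTL by 0.78 (adjusted p = 0.194). Without 1 line the highest adjusted p was 0.0821 for TMPRSS11E, 0.0659 for NPTX2, 0.142 for ASMTL, 0.0819 for DSEL and 0.172 for CPNE8.

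The other large falls were of 0.58 to 0.95 on the log2 scale. PPP2R2B, a regulatory subunit of protein phosphatase 2A, went from 8.62 to 7.62 in H1, from 9.13 to 8.56 in H9 and from 8.86 to 7.56 in HSF1, and fell by 0.95 (SE 0.141, adjusted p = 0.0109). TMT1A, a thiol methyltransferase, fell by 0.85 (adjusted p = 0.0107), the engulfment receptor MEGF10 by 0.76 (adjusted p = 0.0416) and the receptor tyrosine kinase ERBB2 by 0.71 (adjusted p = 0.0416). The diacylglycerol kinase DGKK went from 7.52, 7.46 and 7.48 with DMSO to 6.76, 6.85 and 6.89 with the inhibitor in H1, H9 and HSF1. These arrays did not overlap, and it fell by 0.65 (adjusted p = 0.0286). CLIP3 fell by 0.62 (adjusted p = 0.0286), BPTF, the large subunit of the NURF chromatin remodeller, by 0.59 (adjusted p = 0.0107), FAM78A by 0.59 (adjusted p = 0.0416) and the ubiquitin ligase MYCBP2 by 0.58 (adjusted p = 0.0284). With probe sets averaged all 9 lost the call, and 6 moved by over 1.5 times. These were PPP2R2B (-0.49, adjusted p = 0.136), TMT1A (-0.34, adjusted p = 0.178), ERBB2 (-0.27, adjusted p = 0.478), CLIP3 (-0.34, adjusted p = 0.204), BPTF (-0.34, adjusted p = 0.188) and MYCBP2 (-0.16, adjusted p = 0.525). Without 1 line at least 1 fit lost each of these 9 calls, with the highest adjusted p for ERBB2 (0.192). Of all 24 genes with the largest changes, 11 passed in no fit that left out a line.

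**Figure D3:**
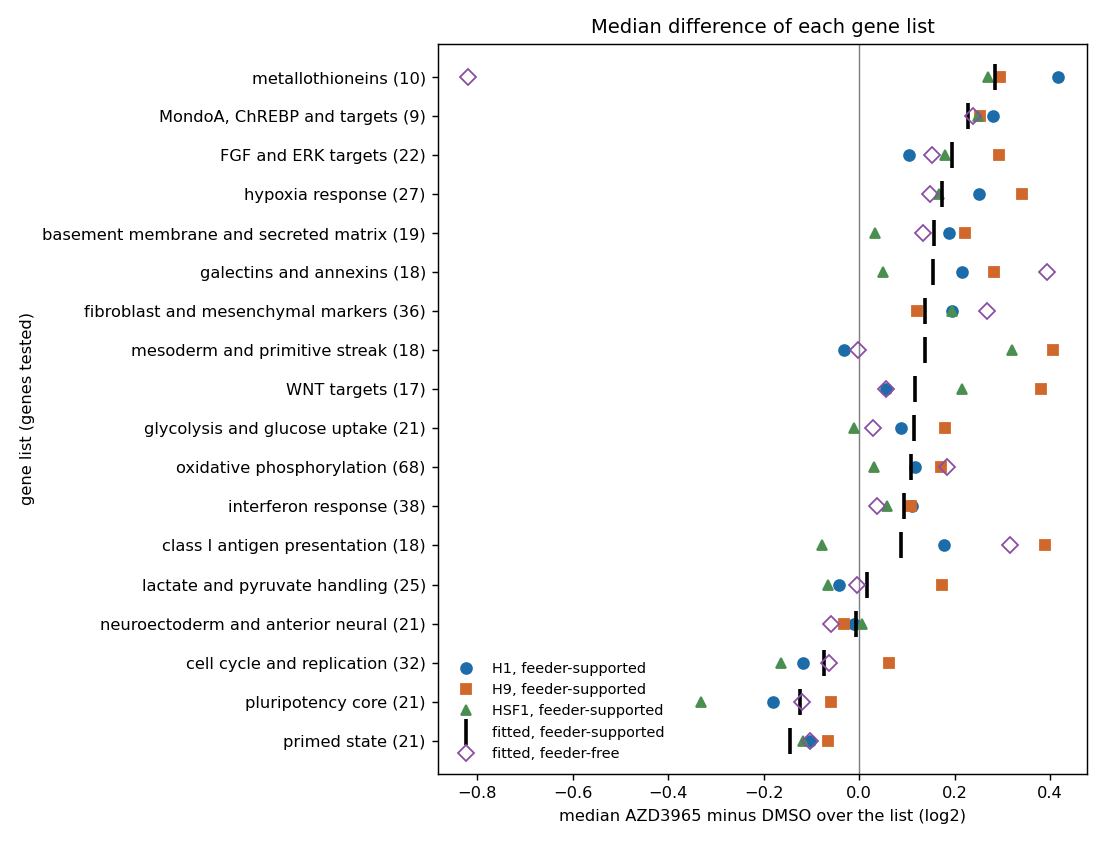
Median log2 difference, AZD3965 minus DMSO (x axis), over the tested genes of 18 lists (y axis, number of genes in brackets), for each feeder-supported line (filled symbols), the fitted feeder-supported difference (black mark) and the fitted feeder-free difference (open diamond). The MondoA and ChREBP list lies between 0.25 and 0.28 in the 3 lines, and metallothioneins lie at 0.28 on feeders and -0.82 without them.

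Over all 45 lists, 15 held at least 1 called gene. These came to 20 of 822 tested genes on lists (2.43%), beside 0.499% of all genes, on lists chosen with earlier results of these data known. The other 30 lists held none, with medians from -0.11 to 0.28. The metallothioneins, small metal-binding proteins, had the highest of these medians, and 10 of 10 tested differences were above 0, beside 52.9% of all genes. MT1X differed by 0.51 (adjusted p = 0.301), MT1H by 0.49 (adjusted p = 0.376) and MT2A by 0.38 (adjusted p = 0.471), and the list had 1 gene with an unadjusted p under 0.05, beside 14.2% of all genes. FGF and ERK targets had a median of 0.19, with DUSP6, a phosphatase of ERK, at 0.51 (adjusted p = 0.107), IER3 at 0.59 (adjusted p = 0.107) and the ligand FGF2 at -0.50 (adjusted p = 0.112). Cell cycle genes had a median of -0.07, but it was 0.06 in H9, and the replication helicase subunit MCM4 and the proliferation marker MKI67 differed by -0.30 (adjusted p = 0.117) and -0.33 (adjusted p = 0.169). The initiator protease CASP8 of cell death differed by 0.70 with an adjusted p of 0.05005, just outside the threshold, and the imprinted gene PHLDA2 by 0.62 (adjusted p = 0.0521). The neuropeptide gene NTS differed by 0.91 (adjusted p = 0.113) and TAC1 by -0.73 (adjusted p = 0.0978).

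The feeder-free pairs gave the same treatment in the same lines on separate arrays. Both effects came from 1 fit with 1 spread per gene, so a gene with a small spread is favoured to pass in both. There 2413 genes passed (14%), 1605 higher (9.32%) and 808 lower (4.69%). Of the 68 genes higher on feeders, 64 were higher without feeders and 52 passed there as higher. Of the 18 lower on feeders, 18 were lower and 13 passed. Among all 17218 genes, 8138 were higher and 9080 lower without feeders. The median difference of the 68 was 0.73 on feeders and 0.69 without, and that of the 18 was -0.61 and -0.56. MCC, a gene mutated in colorectal cancer that was picked after its values were seen, was the 1 gene called in opposite directions, with 0.94 on feeders and -0.76 without. On feeders its 2 probe sets went opposite ways and averaged 0.40 (adjusted p = 0.154), and the call of MCC was lost whichever line was left out (adjusted p = 0.0821 to 0.0951). Without feeders BST2 differed by 2.87, LGALS1 by 2.33, CTHRC1 by 1.42, B2M by 1.08, PDK1 by 0.47, BNIP3 by 0.74 and PRDM14 by -0.61, all past the threshold. Across all genes tested the 2 sets of fitted differences correlated at 0.512.

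Whether a response differed between culture systems was tested as the difference of the inhibitor effects, feeder-supported minus feeder-free, which passed for 140 genes (0.813%), 73 positive and 67 negative. The line-only block gave 3 such genes, no block gave none with 207 at an unadjusted p under 0.05 in limma, and the fits without 1 line's feeder-supported pair gave 18 to 68. CTCFL, a germline paralogue of CTCF, was dim on feeders, with 4.39, 4.21 and 4.66 with DMSO and 5.07, 4.55 and 4.76 with the inhibitor in H1, H9 and HSF1. It rose by 3.64 without feeders. It was tested through its feeder-free arrays, and since its values on feeders lay at or below the floor of 5 for all but 1 array, only the rise without feeders was measured and the difference of the effects (adjusted p = 0.000459) has no exact size. OTX2 fell by 2.15 without feeders against a value of -0.51 on them, and the difference of 1.64 passed (adjusted p = 0.00243). PDE4B fell in both systems, with a difference of -2.88 without feeders, and the difference of the effects, 1.49, passed (adjusted p = 0.0367).

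TXNIP rose on feeders and did not pass without them. It differed by -0.15 without feeders, and the difference of the effects, 1.08, passed (adjusted p = 0.0215). DKK4 lay below 5 on all 6 feeder-free arrays (4.63 to 4.94), so a response there could not be measured, and its difference of 1.32 (adjusted p = 0.049) sets the rise on feeders against dim values. LDHA fell by 0.30 without feeders and the difference of 0.44 passed (adjusted p = 0.0249). NID2 rose in both, by 1.95 without feeders, and the difference of -1.22 passed (adjusted p = 0.0128). For ARRDC4 (0.55, adjusted p = 0.235), SP5 (0.50, adjusted p = 0.391), PDK1 (0.65, adjusted p = 0.0899) and EOMES (0.99, adjusted p = 0.376) the difference between systems did not pass. Averaging probe sets lowered the values of TXNIP (0.57, adjusted p = 0.0933) and PDE4B (0.96, adjusted p = 0.0844) and ended both calls. DKK4 and LDHA have 1 probe set each and kept their values in that analysis, where their adjusted p was 0.104 and 0.0753. Over 13 alternatives the difference failed to pass in 11 for DKK4, 9 for PDE4B, 7 for TXNIP, 7 for LDHA, 5 for NID2, 2 for OTX2 and 1 for CTCFL. As a list, metallothioneins had no called gene on feeders and 6 falls of 10 without them, and the difference between the lists' medians was not tested.

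**Figure D4:**
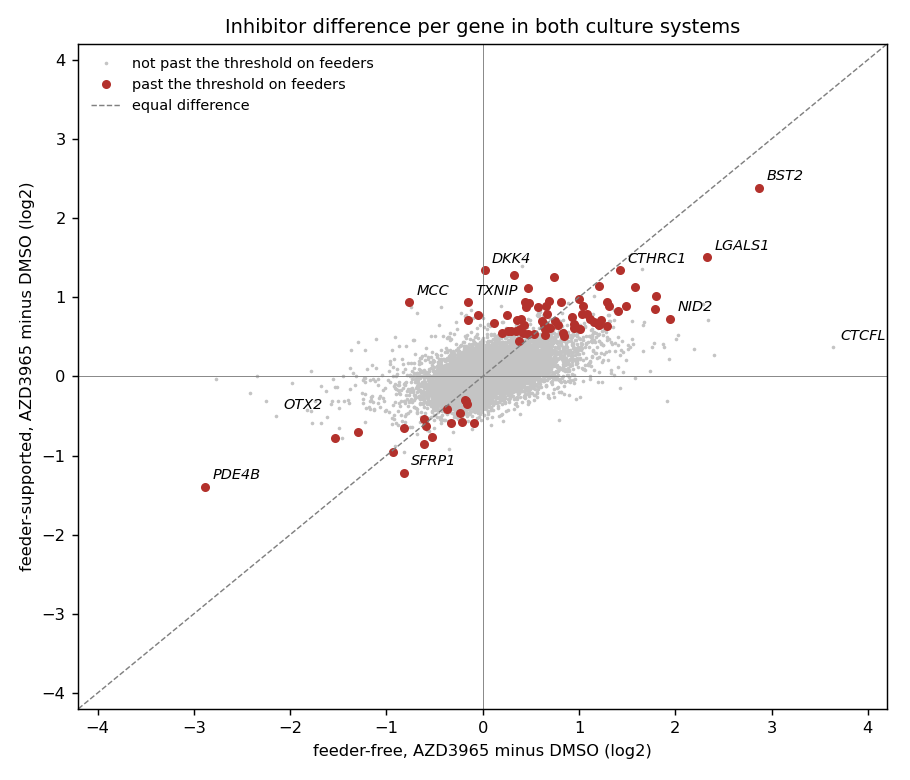
Fitted log2 difference, AZD3965 minus DMSO, of each of 17218 genes in feeder-free cells (x axis) and feeder-supported cells (y axis), with the 86 genes past the threshold on feeders in red and a dashed line of equal difference. BST2 lies near the line at the upper right and CTCFL far below it, while PDE4B, OTX2, DKK4, TXNIP and MCC lie above it.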

How the data were processed

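RNA levels were measured on 24 arrays, of which the 12 of the inhibitor experiment were used, and samples were grouped by their titles. The authors deposited log2 values, made with RMA per the submitters' processing notes. Its version is not given, nor whether 1 run covered all arrays. Precision is limited by the number of arrays. Of 54675 probe sets 41097 named 1 gene, 1801 several and 11777 none in the platform annotation. Of the first, 41043 matched the RefSeq gene table by Entrez identifier and 0 symbols changed. The brightest probe set stood for each of 19775 genes, and 17218 genes were tested because their log2 value exceeded 5 in 3 or more of the 12 arrays.

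The model was limma 3.58.1 (R 4.3.3; eBayes with an intensity trend, Benjamini-Hochberg threshold 0.05), with the pair of arrays of a line within a culture system as block, separate inhibitor effects on and off feeders, and 4 residual and 9.07 prior degrees of freedom. The pair was chosen as block, and not the line alone, because the lines' unequal response to feeders cancels within a pair. That choice was made knowing that an earlier fit of these data with the line as block had called BST2 alone on feeders. The pairing comes from the cell line: after removal of group means, same-line arrays correlated at 0.885, 0.745 and 0.919 on feeders and at 0.682, 0.716 and 0.698 without. The members, the 45 lists of 960 genes and the tests were chosen with earlier results of these data known. Genes named are the 12 largest rises and 12 largest falls past the threshold in 3 of 3 lines, from each list up to 4 genes of smallest p, the 4 smallest p in each direction of the difference between systems, and 13 genes in any case. ARRDC3 and MCC lie outside this rule and were picked after their values were seen. Promoters came from RefSeq (GRCh38.p14), and 65 of the 86 called genes had one; a match was sought on both strands for 4 motifs. The fitting code was tested on simulated data. The 14 alternatives tried are given in the closing section.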

Additional observations from a re-analysis of the deposited data

Results flagged for a closer look

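The inhibitor's effect differed between feeder-supported and feeder-free cells (limma, adjusted over all genes tested) in 16 of the genes named. Values are the effect on feeders minus that without feeders, on the log2 scale. On the negative side lay CTCFL at -3.27, the non-coding RNA LINC01234 at -2.14 (adjusted p = 0.00126), the cholinesterase BCHE at -1.85 (adjusted p = 0.000459), the heat shock protein relative HSPA12A at -1.29 (adjusted p = 0.00587), NID2 at -1.22 and the arrestin ARRDC3 at -1.07 (adjusted p = 0.00928), a relative of TXNIP that rose by 1.15 without feeders and differed by 0.08 on them. CTCFL lay above 5 on 1 of 6 feeder-supported arrays, LINC01234 and BCHE on 0 of 6, and DKK4 on 0 of 6 feeder-free arrays, so a response could not be measured there and these 4 differences are not exact sizes. LINC01234, BCHE and HSPA12A rose by 2.40, 2.20 and 1.41 without feeders and differed by 0.27, 0.34 and 0.12 on them.

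On the positive side lay the potassium channel gene KCNK12 at 1.90 (adjusted p = 0.000459), the chemokine CCL26 at 1.85 (adjusted p = 0.00152), MCC at 1.70 (adjusted p = 0.00627), OTX2 at 1.64, PDE4B at 1.49, the phosphatase regulator PPP1R17 at 1.43 (adjusted p = 0.00206), DKK4 at 1.32, TXNIP at 1.08, the muscle-type tropomyosin TPM2 at 1.06 (adjusted p = 0.00126) and LDHA at 0.44. KCNK12, CCL26, PPP1R17 and TPM2 fell without feeders (-1.98, -1.78, -1.74 and -1.04) and differed by -0.08, 0.06, -0.31 and 0.02 on them. With probe sets averaged the difference was 0.51 (adjusted p = 0.111) for TPM2, -1.19 (adjusted p = 0.00677) for LINC01234, -0.73 (adjusted p = 0.0407) for HSPA12A and 1.12 (adjusted p = 0.0197) for MCC, and for TXNIP and PDE4B 0.57 (adjusted p = 0.0933) and 0.96 (adjusted p = 0.0844). Each gene lost the call in at least 1 of 13 alternatives, in 1 for CTCFL, BCHE and LINC01234 and in 11 for DKK4.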

How the results depend on the processing

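Over 14 alternatives the count of 86 genes on feeders stayed within 1.5 times with arrays shifted to a common median (93), quantile normalization (58), no filter on dim genes (80) and a floor of 6 (88). It was 1 with the line as the only replicate block and 0 without a replicate block. With feeder-supported arrays alone and the line as replicate block it was 339. It was 9 with the mean of all probe sets, 19 without the intensity trend, 130 with a robust spread and 256 with array weights. Without 1 line's feeder-supported pair it was 6 to 12. The count of 140 genes that differed between systems became 3 with the line as the only replicate block, 0 without a replicate block, 27 after quantile normalization, 76 with the mean of all probe sets, 84 without the trend, 492 with array weights and 18 to 68 without 1 line's feeder-supported pair. Signs turned for genes close to 0 on feeders: ARRDC3 was -0.008 with array weights, NANOG -0.032 with probe sets averaged and, with 1 line left out, -0.0423 to 0.0742, HSPA12A -0.0916 and TPM2 -0.0464 with probe sets averaged; and with 1 line left out TPM2 ran from -0.0359 to 0.0521, KCNK12 from -0.1457 to 0.0048 and CCL26 from -0.0364 to 0.1798. Values near background, as for CTCFL, bound a level from above only.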
